A study of Mus musculus with 6 samples.

Results

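The Reg genes encode small secreted proteins built around a C-type lectin domain, and the mouse pancreas is one of the tissues in which they are most abundant. The 6 genes described here, Reg1, Reg2, Reg3a, Reg3b, Reg3d and Reg3g, were taken by symbol from the deposited gene table, which has 12016 rows, and all 6 were present and tested by the authors. Reg4, which lies outside the cluster formed by the others, was not among the tested genes.

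RNA was sequenced from the whole pancreas of 6 untreated male mice aged 3 weeks. There were 3 wild-type mice and 3 homozygous OCaR1 knockout mice (OCar1-/- in the labels). The protocol names the wild type C57Bl6/N, whereas the strain field reads C56Bl6/N for all 6 samples, and nothing in the sources used here says whether the genotypes were littermates or which cells lose the gene. OCaR1 is the product of Tmem63a, a protein of acidic organelle membranes; that link is background knowledge. The knockout value of Tmem63a was 4.91 FPKM against 18.3 FPKM for wild type, so 26.8% of the wild-type level remained.

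FPKM is the number of fragments scaled to transcript length and library size, so levels of different genes can be compared per length. The authors give 1 FPKM value for each genotype, which combines its 3 libraries. Values of single mice were not used here, so no SD, no n and no count of mice showing a direction stands beside a level, the depth is unknown, and overlap between mice cannot be described. The only replicate-based evidence is the authors' Cuffdiff test over all genes. Genes with a q-value under 0.05 in the authors' deposited table are referred to as called, and only these are described as having risen or fallen. In pairs of values below, the knockout comes before wild type unless a direction is given.

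Reg proteins were first isolated as components of pancreatic juice and pancreatic stones, and as products of regenerating islets. Acinar cells release them with the digestive enzymes. They are known as acute-phase products: pancreatitis, cytokines that signal through the gp130 receptor and STAT3, and tissue regrowth raise their transcripts. In the gut, Reg3 proteins bind the cell wall of bacteria.

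The Reg genes were higher in the knockout, and 5 of the 6 rose. Reg3g rose most, 2.01-fold, followed by Reg3a (1.80-fold), Reg2 (1.69-fold), Reg3d (1.48-fold) and Reg3b (1.47-fold). Reg1, the most abundant, was 1.27 times its wild-type level and was not called. Of the 11478 genes the authors tested, 866 (7.54%) were called, 482 (4.20%) of them higher and 384 (3.35%) lower in the knockout. The median log2 fold change of the 6 Reg genes was 0.66, beside -0.03 over all tested genes. RNA from a whole organ cannot tell a change in the number of cells of a type from a change in RNA per cell.

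**Figure D1:**
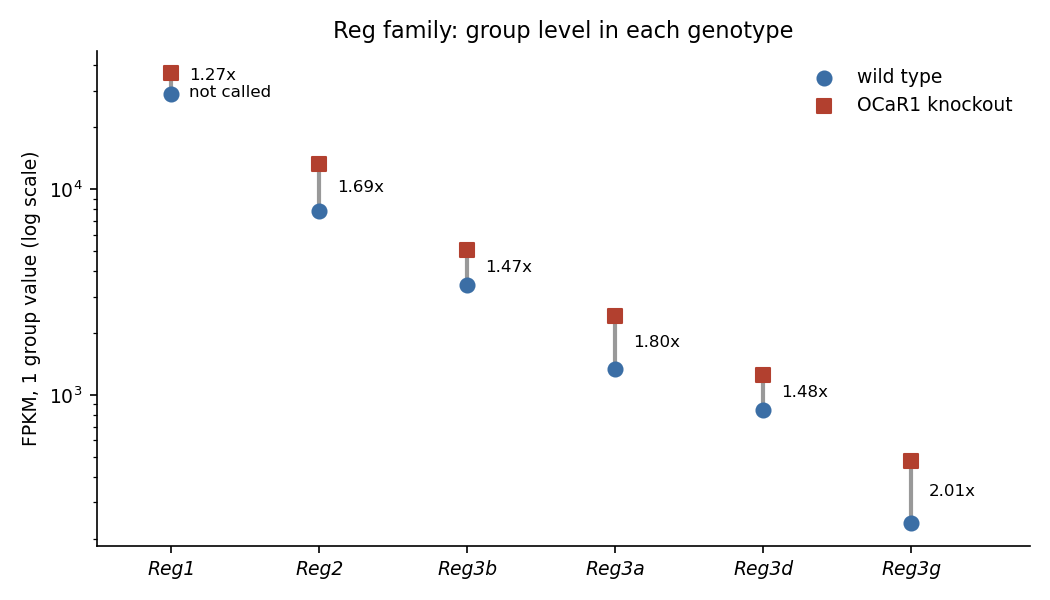
Level of each Reg gene in FPKM (logarithmic axis), 1 authors' group value per genotype, with circles for wild type and squares for the knockout and the knockout over wild type ratio beside each pair. The square lies above the circle for all 6 genes, and the distance is widest for Reg3g (2.01) and narrowest for Reg1 (1.27, not called). No error bars are drawn because the table holds no value of a single mouse.

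Reg1 and Reg2 are the lithostathine genes, whose products are the pancreatic stone proteins. Reg1 had 36606 FPKM (knockout) against 28917 FPKM (wild type), a log2 fold change of 0.34 (q = 0.375 in the authors' deposited table). Among the 12016 deposited genes, it ranked 4th by FPKM in wild type and 2nd in the knockout. Reg2 rose from 7867 FPKM in wild type to 13279 FPKM in the knockout, a log2 fold change of 0.76 (q = 0.00152 in the authors' deposited table). Its rank was 20 in wild type and 14 in the knockout. Reg1 thus stood 3.68 times above Reg2 in wild type and 2.76 times above it in the knockout.

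Reg3b and Reg3g are the pair best known from the intestine, where Reg3g kills Gram-positive bacteria; Reg3b is also called pancreatitis-associated protein. Reg3b rose from 3421 to 5031 FPKM, a log2 fold change of 0.56 (q = 0.00283 in the authors' deposited table). Reg3g, the least abundant Reg gene in both genotypes, rose from 237 to 478 FPKM, a log2 fold change of 1.01 (q = 0.00152 in the authors' deposited table). By FPKM it ranked 120 in wild type and 71 in the knockout, and Reg3b ranked 24 and 25. Reg3b was 14.4 times as abundant as Reg3g in wild type and 10.5 times in the knockout.

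Reg3a and Reg3d complete the Reg3 group; Reg3d is the mouse relative of the hamster islet neogenesis-associated protein. Reg3a rose from 1342 to 2414 FPKM, a log2 fold change of 0.85 (q = 0.00152 in the authors' deposited table). Reg3d rose from 846 to 1251 FPKM, a log2 fold change of 0.56 (q = 0.00152 in the authors' deposited table). Both genes lie side by side in opposite orientation, and Reg3a had the larger ratio. Reg3a ranked 40 in wild type and 37 in the knockout, and Reg3d ranked 49 and 43.

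The order of abundance was the same in both genotypes: Reg1, Reg2, Reg3b, Reg3a, Reg3d and Reg3g. Neighbours in this order differed by 1.59-fold (Reg3a over Reg3d in wild type) to 3.68-fold (Reg1 over Reg2 in wild type). The table holds no spread between mice, so it cannot be said which of these steps, or which differences between the 6 fold changes, exceed it. The ratios of Reg3b and Reg3d, 1.47 and 1.48, are the closest pair.

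Summed over the 6 genes, Reg transcripts amounted to 59060 FPKM (knockout) against 42630 FPKM (wild type), 1.39 times as much. They made up 8.72% of the summed FPKM of all genes in the knockout and 6.50% in wild type. Of the added FPKM, 46.8% came from Reg1, which was not called, and 32.9% from Reg2. The share of Reg1 within the family was 67.8% in wild type and 62.0% in the knockout, and that of Reg2 was 18.5% and 22.5%. The 4 Reg3 genes together went from 5847 to 9175 FPKM (1.57-fold), and Reg1 and Reg2 together from 36784 to 49885 FPKM (1.36-fold). These sums carry no test.

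Calls were more frequent among abundant genes. Among the 290 tested genes that reached 100 FPKM in a genotype, 22 (7.59%) were called higher and 18 lower. Of those 22, 5 are Reg genes and 17 are not. At 1000 FPKM or more, a level set after the values were seen, 7 of 49 genes (14.3%) were called higher and 5 lower. Of these 7, 4 are Reg genes, and the others are the insulin gene Ins2, the trypsin inhibitor gene Spink3 and the mitochondrial gene mt-Co1. The median log2 fold change of the 49 was 0.16, beside 0.02 among the 290. The Reg genes are part of each of these counts.

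**Figure D2:**
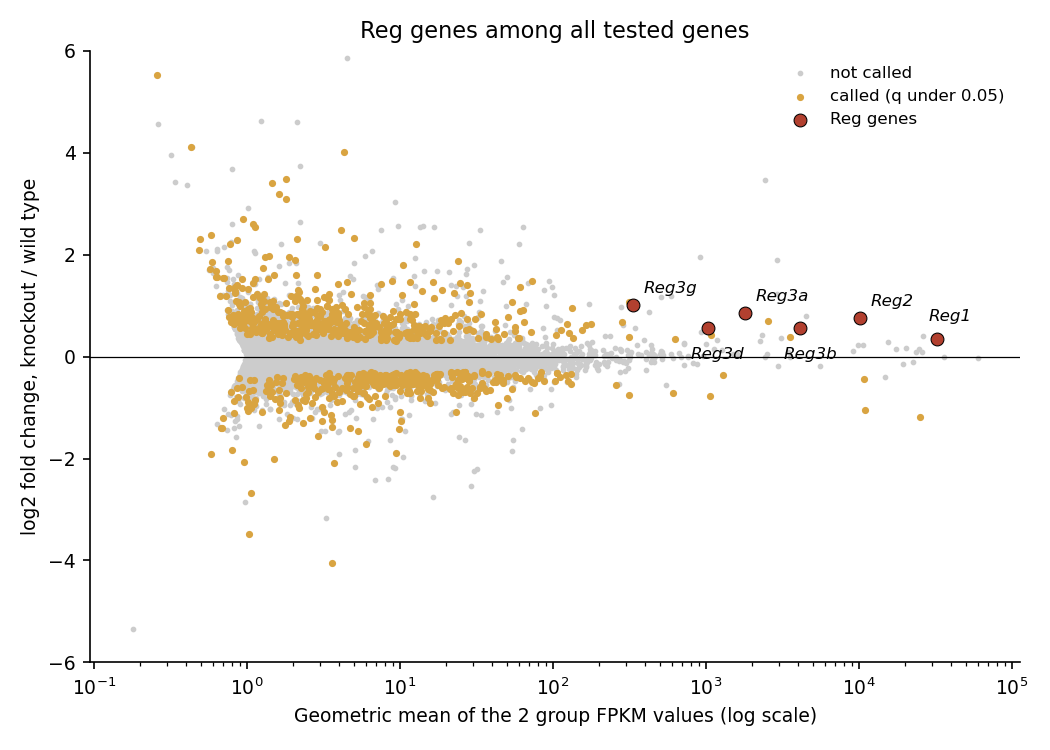
Log2 fold change (knockout over wild type) against the geometric mean of both group FPKM values (logarithmic axis) for 11441 tested genes, with called genes in ochre and the 6 Reg genes as large red points; 2 genes lie beyond the plotted range of 6 in either direction. The Reg genes sit at the abundant end, between 0.34 (Reg1) and 1.01 (Reg3g).

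The 6 genes form one cluster. They span 98.0 kb of chromosome 6 (GRCm38, 78370885 to 78468872), and the table holds no other gene within 1 Mb of it. From low to high coordinates the order is Reg3b (ENSMUSG00000071356, 78370885 to 78373466), Reg3d (ENSMUSG00000068341, 78375874 to 78378865) and Reg3a (ENSMUSG00000079516, 78380709 to 78383839). Then follow Reg2 (ENSMUSG00000023140, 78405155 to 78408097), Reg1 (ENSMUSG00000059654, 78425983 to 78428666) and Reg3g (ENSMUSG00000030017, 78466269 to 78468872). Reg3d and Reg3g are read from the minus strand and the other 4 from the plus strand. All are protein-coding with 6 exons in the main GENCODE M21 transcript, and coding lengths run from 498 bases (Reg1) to 528 bases (Reg3a, Reg3b and Reg3d). The largest ratio (Reg3g) and the smallest (Reg1) belong to neighbours at the same end of the cluster.

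The family members are paralogs, and reads of near-identical genes can be divided between them. Coding sequences of Reg1 and Reg2 were identical at 78.7% of aligned positions, and those of the Reg3 genes at 66.2% (Reg3d with Reg3g) to 75.9% (Reg3b with Reg3g). Between both groups identity was 55.0% to 59.7%. The reads were 50 bases long, so every window of 50 bases in the GENCODE transcripts of the 6 genes was looked up in all transcripts of other genes, on both strands. None of these windows occurred in another Reg gene, and none of those in the main transcripts occurred in any other gene. Alternative transcripts of Reg1 and Reg2 did share windows with other genes, 32 of 876 for Reg1 and 102 of 899 for Reg2. The search asked for exact matches in annotated transcripts, and the sources used here do not say how reads with several positions were treated.

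**Figure D3:**
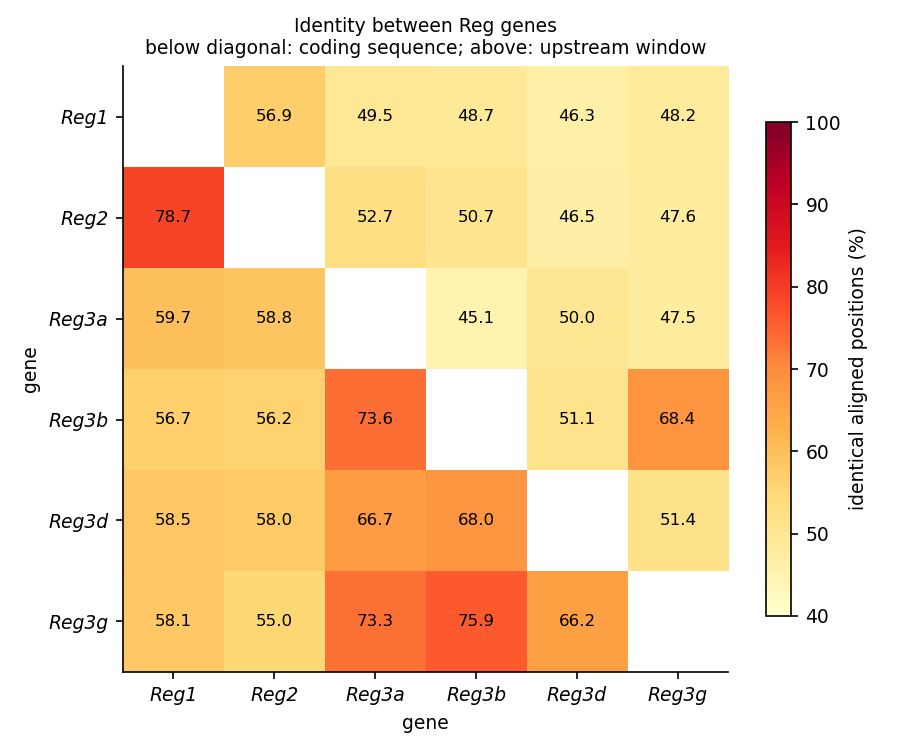
Percentage of identical aligned positions for each pair of Reg genes, coding sequence below the diagonal and the 250 bases upstream of the RefSeq start above it. Coding identity is highest for Reg1 with Reg2 (78.7) and Reg3b with Reg3g (75.9), and upstream identity stands out only for Reg3b with Reg3g (68.4). Upstream windows are set from annotated starts, and an offset between starts, as for Reg3a, can lower upstream identity.

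Since 5 of these neighbouring genes rose together, the 250 bases before each RefSeq start (GRCm38.p6) were read. Windows of Reg3g (chr6:78468875-78469124, minus strand), Reg3a (chr6:78380459-78380708, plus strand) and Reg2 (chr6:78404905-78405154, plus strand) are shown because these genes had the 3 largest ratios. Each runs 5′ to 3′ and ends at the base before the start. Capitals mark the E-box CANNTG, bound by basic helix-loop-helix proteins, and TGGGAA or its reverse TTCCCA, bound by Rbpj; both kinds of protein are parts of the acinar PTF1 complex.
Reg3g upstream window: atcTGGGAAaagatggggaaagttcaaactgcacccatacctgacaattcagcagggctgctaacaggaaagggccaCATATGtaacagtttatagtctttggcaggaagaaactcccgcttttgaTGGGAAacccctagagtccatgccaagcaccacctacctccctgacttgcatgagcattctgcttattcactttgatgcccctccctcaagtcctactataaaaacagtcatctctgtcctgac
Reg3a upstream window: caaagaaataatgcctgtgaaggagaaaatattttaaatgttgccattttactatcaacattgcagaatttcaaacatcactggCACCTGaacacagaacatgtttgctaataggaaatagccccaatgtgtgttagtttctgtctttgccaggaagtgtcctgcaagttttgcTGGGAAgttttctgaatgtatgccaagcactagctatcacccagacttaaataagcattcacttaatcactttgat
Reg2 upstream window: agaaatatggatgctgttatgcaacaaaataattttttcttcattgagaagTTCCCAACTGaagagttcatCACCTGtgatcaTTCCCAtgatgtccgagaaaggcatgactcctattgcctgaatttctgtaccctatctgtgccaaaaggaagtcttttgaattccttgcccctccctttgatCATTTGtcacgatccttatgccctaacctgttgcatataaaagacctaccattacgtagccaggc
The 3 windows each hold at least 1 of both motifs, at different distances from the annotated start. In Reg3g the TGGGAA begins 124 and 247 bases before the start, in Reg3a 76 bases before it, and in Reg2 the reverse TTCCCA 167 and 199 bases before it. The Reg3g motif at 124 bases and the Reg3a motif at 76 bases are both followed by gccaagcac and later by cactttgat. The Reg3a window ends there and that of Reg3g runs on, so these distances depend on where each start is annotated. TGGGAA on either strand was found in 5 of the 6 Reg windows (all but Reg3b) and in 21.6% of all 32817 RefSeq windows of the same length. CANNTG was found in 6 of 6 and in 66.2% of all windows. The STAT motif TTCNNNGAA was found in Reg3b and Reg3d only and in 7.01% of all windows, and the CEBP motif TTGCNNAA, on either strand, in Reg2 and Reg3a only and in 9.57% of all windows. In Reg3d the STAT motif overlaps a TTCCCA, and in Reg2 an E-box overlaps the TTCCCA at 199 bases. The windows of Reg1 and Reg3b overlap exons annotated in GENCODE M21. The motifs are matches of letters and not measured sites, and Reg1, whose window holds 1 E-box and 2 Rbpj motifs, was not called. Upstream windows were 45.1% to 56.9% identical in all pairs except Reg3b with Reg3g (68.4%), which differed in their ratios (1.47 and 2.01). Windows set from annotated starts can be offset, as those of Reg3a and Reg3g are, so these identities may understate shared upstream sequence.

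Genes of Reg signalling were measured as well. Extl3, an exostosin-like glycosyltransferase that has been proposed as the Reg receptor, fell from 36.7 to 24.1 FPKM, a log2 fold change of -0.61 (q = 0.00152 in the authors' deposited table). Extl3 was thus lower where 5 Reg genes were higher. Other exostosin genes were not called: Ext2 had 8.13 and 9.58 FPKM, Extl1 had 4.12 and 5.40 FPKM, and Extl2 had 3.82 and 2.60 FPKM. Of the 5 tested exostosin genes, 0 were called higher and 1 lower, with a median log2 fold change of -0.24.

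The gp130 and STAT3 pathway, through which interleukin 6 and related cytokines raise Reg transcripts, held 1 call. Of 19 tested genes of 26 in the list, Junb, a transcription factor gene induced by these cytokines, was called higher (4.95 and 2.61 FPKM). None was called lower by Cuffdiff. A further 7 had an unadjusted p under 0.05 in the authors' deposited table, all with the higher value in the knockout. The share of all tested genes at that unadjusted p was not counted, so this number has no background beside it. Of the 19 genes, 8 lie in an interval listed for another gene too. The 7 genes at that unadjusted p included the receptor genes Osmr (1.52 and 0.980 FPKM, q = 0.0874), Il6ra (2.89 and 2.30 FPKM, q = 0.110) and Lifr (19.9 and 16.0 FPKM, q = 0.143). The intervals of these receptor genes are not shared. Named after their values were seen, the feedback inhibitor gene Socs3 had 3.52 and 1.80 FPKM (q = 0.185 in the authors' deposited table), and Stat3 itself 20.0 and 18.3 FPKM (q = 0.921), where another row of the table has the same interval as Stat3. The shared receptor gene Il6st, also named afterwards, had 22.6 and 22.4 FPKM. The list median was 0.13.

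Other lectin and granule glycoprotein genes, a list that also holds colipase, were mostly not called. Of 10 tested genes, 2 were called higher and 0 lower, with a median log2 fold change of 0.15. The called genes were Lgals9 (26.1 and 16.5 FPKM) and Lgals3 (3.38 and 1.42 FPKM), both galectins. Zg16, a lectin of the zymogen granule membrane, was named after its value was seen because its level lay between those of Reg1 and Reg2. It had 18519 and 16765 FPKM (q = 0.752 in the authors' deposited table). Gp2, the main granule membrane glycoprotein, had 2803 and 3170 FPKM (q = 0.619).

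The digestive enzymes are secreted with the Reg proteins. Of 21 tested genes of 27 in the list, 2 were called higher and 3 lower, and the median log2 fold change was 0.00. The others (Amy2a5, Amy2b, Ctrb1, Ctrc, Cela2a and Dnase1) were not found among the deposited genes. Ranks, shares of summed FPKM and the enzyme sum leave them out. The trypsinogen genes Prss3 (458 and 217 FPKM) and Prss1 (78.8 and 37.5 FPKM) rose, while the lipase gene Pnlip (7662 and 15748 FPKM), the elastase gene Cela1 (16591 and 37728 FPKM) and the syncollin gene Sycn (9338 and 12703 FPKM, in an interval listed for another gene too) fell. Cela1 was named after its value was seen. The calls of Pnlip (q = 0.0407) and Cela1 (q = 0.0487 in the authors' deposited table) lay near the threshold. Reads of trypsinogen paralogs may be split among them. Summed FPKM of the tested members was 341375 in the knockout and 363686 in wild type, 0.939 times as much. The Reg sum was 1.39 times as much. Pnlip and Cela1 together lost more FPKM than this sum did, so the other tested members together summed higher in the knockout. Acinar transcription factors had 0 of 12 called higher and 4 lower, among them Ptf1a, the E-box-binding subunit of PTF1 (27.2 and 40.9 FPKM), with a median of -0.33.

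Acinar stress and acute-phase genes moved in both directions: of 18 tested, 6 were called higher and 2 lower (median 0.29). The haptoglobin gene Hp (7.50 and 2.70 FPKM) and the adhesion receptor gene Cd44 (2.56 and 1.44 FPKM) rose with the Reg genes. Nupr1, a stress-induced nuclear protein gene activated in pancreatitis (814 and 1391 FPKM), and the cytokine gene Gdf15 (1.55 and 3.09 FPKM) fell. This list was written with earlier results of these data known.

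Some markers of other cell types were also higher in the knockout, and their part in the Reg result was not tested. Islet genes had 14 of 20 called higher and 0 lower (median 0.63), and their summed level was 4147 and 2586 FPKM. Macrophage genes had 13 of 16 called higher and 0 lower (median 0.84, sums 152 and 86.2 FPKM). Fat cell genes had 7 of 8 higher and 0 lower (median 1.36, sums 221 and 93.1 FPKM), and fibroblast genes 8 of 14 higher and 2 lower (median 0.42, sums 554 and 425 FPKM). Duct genes had 2 of 9 called higher (median 0.26, sums 253 and 234 FPKM). No tested member of these lists was listed at 0 in either genotype.

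Few genes of the T cell and innate lymphoid, the neutrophil, and the intestine and liver lists were tested. In the T cell and innate lymphoid list, Thy1 (5.51 and 4.03 FPKM) rose, while Tcf7 had 0.821 and 1.61 FPKM without a call. Of 10 neutrophil genes 2 were tested, S100a8 (3.09 and 1.83 FPKM) and S100a9 (2.05 and 1.23 FPKM). Cuffdiff called 0 of them, with 2 at an unadjusted p under 0.05, for which the share of all tested genes was not counted. Of 15 intestine and liver genes 4 were tested. The lysozyme gene Lyz1, known from Paneth cells, rose (1.27 and 0.621 FPKM), and the albumin gene Alb fell (0.746 and 1.39 FPKM). The lysozyme gene Lyz2, in the macrophage list, had 44.4 and 18.7 FPKM. Whether reads of both lysozyme genes were divided between them was not tested. The villin gene Vil1 had 1.36 and 2.07 FPKM and the transthyretin gene Ttr 34.7 and 29.6 FPKM, both without a call. The intervals of Tcf7, Vil1 and Ttr are each listed for another gene too, and Thy1 is also in the fibroblast list.

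**Figure D4:**
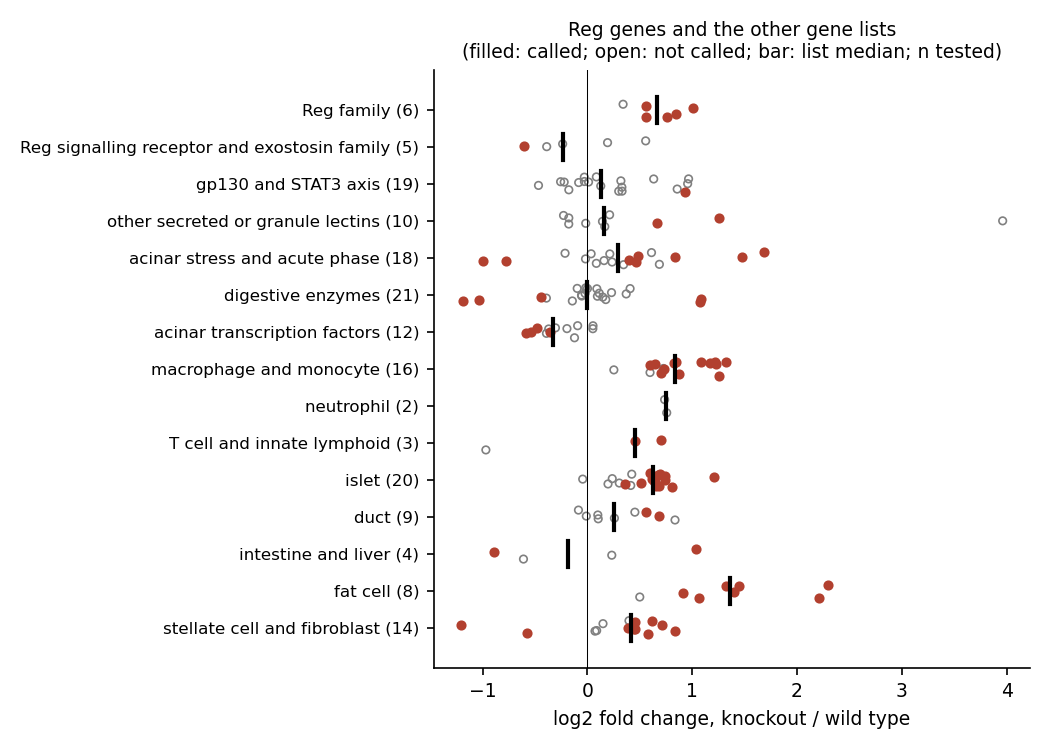
Log2 fold change (knockout over wild type) of every tested gene of the Reg family and 14 other lists, with filled points for called genes, open points for genes not called, a bar at each list's median and the number tested in brackets. The Reg median (0.66) lies near the islet median (0.63), above the digestive enzymes (0.00) and below the macrophage (0.84) and fat cell (1.36) medians.

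The genes whose ratio was most like that of the Reg family were sought among 231 other genes with at least 100 FPKM in both genotypes, by the distance of their log2 fold change from the Reg median of 0.66. This likeness rests on 2 group values only. The nearest 5 were the glucagon gene Gcg (0.67), the insulin gene Ins1 (0.64), the mitochondrial tRNA gene mt-Tl2 (0.63), the insulin gene Ins2 (0.69) and the islet amyloid gene Iapp (0.61). All but mt-Tl2 (q = 0.674 in the authors' deposited table) were called higher, and 4 of the 5 encode islet hormones. The interval of mt-Tl2 is listed for another gene too.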

How the data were processed

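Polyadenylated RNA (2.5 µg, RNA integrity number 8.20 to 9.10) was sequenced as single reads of 50 bases, per the labels' protocols. STAR 2.5.1b, Cufflinks 2.2.1, Cuffdiff and GRCm38 were used, per the submitters' processing notes. The sources used here do not give the annotation release, strand use or scaling. The authors deposited 1 FPKM value per gene and genotype, the test statistic (a score), the p-value and the q-value, per the file headers. Every gene in the table has at least 1.00006 FPKM in a genotype. The columns of single samples numbered 0, so no test was added.

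Fold changes were recomputed as knockout over wild type without a pseudocount, since 352 deposited cells were not numbers; for the Reg genes both agree within 4.9e-06. Values under 0.01 FPKM counted as 0, and 538 untested rows were left out of counts. Sequences came from GENCODE M21 transcripts and RefSeq promoters of GRCm38.p6 (6 of 6 genes matched); coding identity replaced the planned protein identity. Alignments were global (Biopython 1.88), and identity is the share of identical columns, gaps included. Window search and adjustment were tested on simulated data.

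The Reg genes and the 14 lists were chosen with earlier results of these data known. Named are the Reg genes, Extl3, Tmem63a, up to 4 genes per list by smallest p (then by larger change), genes within 1 Mb of the cluster and the 5 nearest in fold change. A gene of the T cell and innate lymphoid list is not reported here.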

Additional observations from a re-analysis of the deposited data

How the results depend on the processing

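The 5 Reg calls were also 5, all higher, at q under 0.01, at q under 0.10, with the deposited p-values readjusted over the tested genes, and among genes with at least 5 FPKM. Under 6 other settings (pseudocounts of 0.5 and 1, the deposited fold change, and 3 scalings) all 36 log2 fold changes of the 6 genes were above 0, from 0.19 (Reg1) to 1.10 (Reg3g). These 36 values are not separate checks. The pseudocounts are small beside levels this high, the deposited fold change is the same ratio, and each scaling shifts every gene by the same amount. Scaling to genes outside the digestive enzyme and Reg lists moved all genes by 0.15, which left Reg1 at 0.19 and the summed Reg level at 0.32 in place of 0.47. Without Reg1 the summed level was 0.71. No test could be repeated under a scaling. The calls over all genes numbered 522 at q under 0.01 (311 higher, 211 lower) and 521 among genes with at least 5 FPKM (241 higher, 280 lower), in place of 866 (482 higher, 384 lower). Leaving out a mouse could not be run on group values. No paired analysis was possible because the table holds 1 value per genotype.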

Other observations

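Over all genes, the deposited p did not follow the size of the authors' test statistic, whereas among the 6 Reg genes no gene with a smaller p had a statistic of smaller size. The smallest p of the authors' deposited table, 5e-05, is shared by 394 genes, of which 4 are Reg genes, and their statistics run from -1.82 (Reg2) to -3.48 (Reg3g), where a negative sign means higher in the knockout. Over the genes at that p with a numeric statistic, its size ran from 0.610 to 7.71. Reg3b, at p = 0.0001 in the authors' deposited table, had a statistic of -1.57. A statistic of larger size without a call was found in 71 genes for Reg3b and in 35 for Reg3g. The statistic of Reg1, which was not called, was -0.71, and 4 called genes had one of smaller size.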
